A study of Mus musculus with 6 samples.

Results

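The 8 genes described here encode enzymes of haem synthesis, in pathway order Alas1, Alas2, Alad, Uros, Urod, Cpox, Ppox and Fech. Every probe set that names exactly 1 of these genes in the array's gene table was taken, which gave 8 probe sets, 1 for each gene, among 34760 probe sets on the array. Affymetrix arrays measured the RNA of CD4+ T cells, which comprise helper and regulatory T lymphocytes, taken from 6-week-old C57BL/6 mice. RNA of cells from mice lacking CBS (CBS-KO, 3 arrays) was compared with RNA of cells from wild-type mice (WT, 3 arrays). CBS, cystathionine beta-synthase, joins homocysteine and serine, makes hydrogen sulfide, and in mammals itself binds haem. The labels call the arrays biological replicates, and the sources used here do not give the allele, the sex of the mice, the purity of the cells or whether animals were pooled. Values are log2(intensity + 16), where intensity is the deposited value on a linear scale, and every difference is CBS-KO minus WT.

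Haem is the iron-porphyrin group of haemoglobin, cytochromes, catalase and peroxidases. Its synthesis starts in the mitochondrion, where aminolevulinate synthase joins glycine and succinyl-CoA, continues in the cytosol with Alad, Uros and Urod, and returns to the mitochondrion for Cpox, Ppox and Fech. Most cells make a small amount through Alas1, the form of the first enzyme that haem holds down by feedback. Red cell precursors use Alas2, the erythroid form, whose gene lies on the X chromosome, and they raise the whole pathway while they fill with haemoglobin. The enzyme that acts between Alad and Uros is not analysed here.

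The arrays had these properties across all genes. Array medians lay between 7.37 and 7.55, and the number of arrays limits the precision of every value. The probe set of Cbs averaged 7.41 ± 0.20 in CBS-KO and 7.35 ± 0.15 in WT arrays (SD, n = 3 each), near the array medians. It does not check the labels, because a WT level this low leaves little room to see a loss. The sources used here also do not say which part of the gene it covers. Cd4 averaged 12.77 ± 0.28 in CBS-KO and 13.34 ± 0.10 in WT arrays (SD, n = 3 each), a log2 difference of -0.57 (SE 0.14, limma adjusted p = 0.0511). The gene that defines the labelled cell type was thus bright on every array, with a lower mean in CBS-KO arrays. All 10 measured CD4 T cell markers had a lower mean in CBS-KO cells, 9 of them at an unadjusted p under 0.05 in limma. The share of all tested probe sets lower at that unadjusted threshold was not counted. After adjustment 4 of the 10 fell and 0 rose, where 4.47% of all tested probe sets were called lower. This count of 4 became 0 without CBS-KO 1 or any 1 WT array, fits that called 19 to 246 of all probe sets lower. It was 10 without CBS-KO 2, where 3031 of all were lower. With no filter (524 of all lower) or no intensity trend (941 of all lower) it was 2. Y-linked Eif2s3y read 9.41, 9.19 and 4.87 in CBS-KO 1 to 3 and at most 4.90 in WT arrays, which puts Y-linked signal in 2 of 3 CBS-KO and 0 of 3 WT arrays. Genotype and sex-linked signal were therefore partly confounded, and a model with Y-linked signal as a term leaves the genotype estimate to CBS-KO 3.

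Promoter sequences of the members are shown because their probe sets moved in the same direction, and because red cell genes are known to be controlled by GATA factors. RefSeq windows of 300 bases (build GRCm38.p6, 250 bases before and 50 after an annotated start) were matched by symbol for 7 of the 8 genes, in 10 windows, and the pairs of windows of Alas1 and of Alad overlap. The windows below are those of Alas2 and Cpox, the genes with the largest changes, of the Uros start whose window holds GATA letters, and of the upstream Alas1 start, the other form of the first enzyme. All are written 5′ to 3′ along the gene. Capitals mark AGATAA or TGATAA or AGATAG or TGATAG, the hexamers that GATA factors prefer, and GGGCGG, the GC box, each searched on both strands.
Alas2, chrX:150547167-150547466, plus strand: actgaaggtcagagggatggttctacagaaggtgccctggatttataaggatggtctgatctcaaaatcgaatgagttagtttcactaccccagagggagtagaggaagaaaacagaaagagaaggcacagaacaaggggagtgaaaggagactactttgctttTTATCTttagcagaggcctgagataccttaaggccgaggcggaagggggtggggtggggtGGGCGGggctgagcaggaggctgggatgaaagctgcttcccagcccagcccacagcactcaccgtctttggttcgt
Cpox, chr16:58669958-58670257, plus strand: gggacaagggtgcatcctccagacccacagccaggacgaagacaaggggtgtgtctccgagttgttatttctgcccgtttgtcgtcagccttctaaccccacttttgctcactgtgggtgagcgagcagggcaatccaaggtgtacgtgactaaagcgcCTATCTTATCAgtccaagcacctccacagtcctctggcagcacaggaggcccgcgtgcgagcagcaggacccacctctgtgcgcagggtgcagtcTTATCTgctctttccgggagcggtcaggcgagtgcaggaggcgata
Uros, chr7:133702451-133702750, minus strand: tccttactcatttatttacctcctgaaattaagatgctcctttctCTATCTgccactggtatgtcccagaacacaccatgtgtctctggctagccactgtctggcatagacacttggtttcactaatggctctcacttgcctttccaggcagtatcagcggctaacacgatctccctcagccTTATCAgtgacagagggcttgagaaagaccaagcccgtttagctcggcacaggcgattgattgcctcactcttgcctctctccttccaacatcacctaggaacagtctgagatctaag
Alas1, chr9:106247905-106248204, minus strand: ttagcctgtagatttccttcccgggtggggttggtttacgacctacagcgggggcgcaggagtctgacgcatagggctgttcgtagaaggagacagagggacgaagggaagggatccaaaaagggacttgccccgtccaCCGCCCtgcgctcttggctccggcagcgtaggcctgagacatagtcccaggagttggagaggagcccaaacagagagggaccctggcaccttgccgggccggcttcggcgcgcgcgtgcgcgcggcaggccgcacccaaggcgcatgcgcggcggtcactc
The Alas2 window holds TTATCT, which is AGATAA on the other strand, from base 165, and GGGCGG from base 225. The Cpox window holds CTATCT from base 160 and TTATCA from base 165, which share 1 base, and TTATCT from base 255, just past the start. The Uros window holds CTATCT from base 46 and TTATCA from base 183, and the Alas1 window only CCGCCC, the GC box on the other strand, from base 140. A GATA hexamer stood in 3 of the 10 member windows, against 29.8% of 32851 windows of all genes, so the members' share was near that of all genes. AGATAA stood in 2 of the 10 windows, against 11.2% of all, and GGGCGG in 7 of the 10, against 35.7% of all. A match describes these letters and not a site of binding.

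All 8 enzymes had a higher mean in CBS-KO than in WT cells, and 4 of them rose by the test: Alas2, Cpox, Alad and Fech, from the first, the second and the last part of the pathway. The median log2 fold change of the 8 was 1.46, against -0.05 for all tested probe sets. With limma and Benjamini-Hochberg adjustment over 20856 tested probe sets, 4 of 8 passed an adjusted p of 0.05 as higher and 0 as lower, where 5.09% of all tested probe sets passed as higher and 4.47% as lower. All 8 had an unadjusted p under 0.05 in the upward direction, against 13.6% of all, and in 7 of the 8 every CBS-KO array lay above every WT array, against 15.0% of all. All 8 probe sets passed the filter on low values, which lay at 6.99, and the WT mean of each also lay above that level. Of the 5 mitochondrial enzymes 3 rose, and of the 3 cytosolic enzymes 1 rose. In RNA of a whole sample, more cells of one type and more RNA per cell cannot be told apart.

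**Figure D1:**
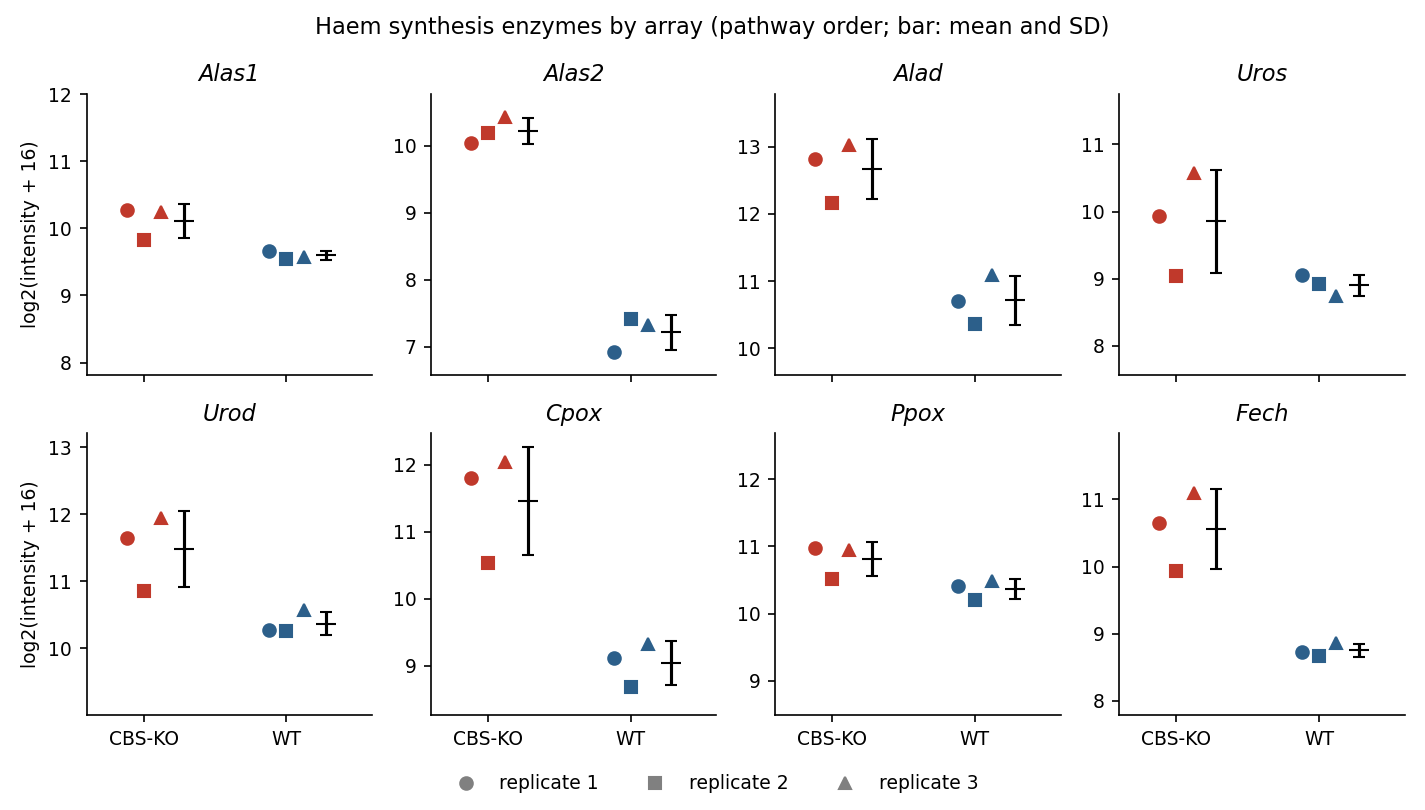
Each panel plots the log2(intensity + 16) of 1 enzyme in the 3 CBS-KO arrays (red, left) and the 3 WT arrays (blue, right), with the marker shape giving the replicate number and the black bar the mean and SD. Every panel spans the same range on its vertical axis. The groups overlap in Uros alone, and Alas2 has the widest gap, 2.64 between its lowest CBS-KO and highest WT array.

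The first step is encoded by 2 genes, Alas2 and Alas1. Alas2, the erythroid aminolevulinate synthase, read 10.04, 10.18 and 10.43 in CBS-KO 1 to 3, against 6.92, 7.41 and 7.32 in WT 1 to 3. All CBS-KO arrays were high, their SD was 0.20, and the groups did not overlap. In intensity this was 1181 ± 165 in CBS-KO and 134 ± 25.7 in WT cells (SD, n = 3 each). Alas2 rose by a log2 fold change of 3.002 (SE 0.18, limma adjusted p = 0.00146), an 8.01-fold difference with a 95% confidence interval of 5.95 to 10.8. Its WT values lay below the median of every WT array, and WT 1 lay below the filter level of 6.99, so the size of this fold depends on a background that the sources used here do not give. The two-sided exact permutation test of its means gave p = 0.1, the smallest p that 3 against 3 arrays allow. Among the 8 enzymes, Alas2 alone varied less among CBS-KO arrays (SD 0.20) than among WT arrays (0.26).

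Alas1, the housekeeping aminolevulinate synthase, read 10.27, 9.82 and 10.25 in CBS-KO 1 to 3, against 9.67, 9.55 and 9.57 in WT 1 to 3. Its groups did not overlap, but CBS-KO 2 lay only 0.15 above the highest WT array. The log2 fold change of 0.51 (SE 0.15, 95% confidence interval 0.15 to 0.87, limma adjusted p = 0.0741) did not pass. Within each array, Alas2 minus Alas1 was -0.22, 0.35 and 0.18 in CBS-KO 1 to 3, against -2.75, -2.15 and -2.25 in WT 1 to 3. The change of Alas2 thus exceeded that of Alas1 by 2.49 on the log2 scale, with no overlap between the groups and p = 0.1 in the two-sided exact permutation test, the smallest it can give.

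The cytosolic steps follow. Alad, aminolevulinate dehydratase, condenses aminolevulinate to the pyrrole porphobilinogen and is the zinc enzyme that lead inhibits. It read 12.82, 12.16 and 13.03 in CBS-KO 1 to 3, against 10.70, 10.36 and 11.09 in WT 1 to 3. Every CBS-KO array lay at least 1.07 above the highest WT array, and Alad rose by 1.95 (SE 0.27, limma adjusted p = 0.0146), a 3.87-fold difference (95% confidence interval 2.48 to 6.02). Uros, uroporphyrinogen III synthase, closes the ring of pyrroles, and its loss causes congenital erythropoietic porphyria in humans. It read 9.94, 9.04 and 10.58 in CBS-KO 1 to 3, against 9.05, 8.92 and 8.74 in WT 1 to 3. CBS-KO 2 lay within the WT range and CBS-KO 3 was the highest, so the log2 difference of 0.95 (SE 0.37, 95% confidence interval 0.08 to 1.82) did not pass (limma adjusted p = 0.137). Its two-sided exact permutation p was 0.2. Urod, uroporphyrinogen decarboxylase, trims the side chains of the ring. It read 11.64, 10.85 and 11.95 in CBS-KO 1 to 3, against 10.28, 10.26 and 10.57 in WT 1 to 3. The groups did not overlap, and the log2 difference of 1.11 (SE 0.28, 95% confidence interval 0.45 to 1.77) had a limma adjusted p of 0.0525, just short of the threshold.

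The mitochondrial end of the pathway held both the largest and the smallest change outside the first step. Cpox, coproporphyrinogen oxidase, which acts in the space between the mitochondrial membranes, read 11.80, 10.53 and 12.04 in CBS-KO 1 to 3, against 9.12, 8.69 and 9.33 in WT 1 to 3. The groups lay 1.20 apart at their nearest, and Cpox rose by 2.41 (SE 0.40, limma adjusted p = 0.0215), a 5.32-fold difference (95% confidence interval 2.75 to 10.3). Ppox, protoporphyrinogen oxidase, carries out the next oxidation. It read 10.97, 10.52 and 10.94 in CBS-KO 1 to 3, against 10.41, 10.20 and 10.48 in WT 1 to 3, a gap of 0.04 between the nearest arrays. Its log2 difference of 0.44 (SE 0.16, 95% confidence interval 0.07 to 0.81) did not pass (limma adjusted p = 0.113). Fech, ferrochelatase, inserts iron into protoporphyrin and completes haem. It read 10.65, 9.93 and 11.10 in CBS-KO 1 to 3, against 8.73, 8.67 and 8.86 in WT 1 to 3. The groups lay 1.07 apart, and Fech rose by 1.81 (SE 0.28, limma adjusted p = 0.0191), a 3.51-fold difference (95% confidence interval 2.19 to 5.62).

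**Figure D2:**
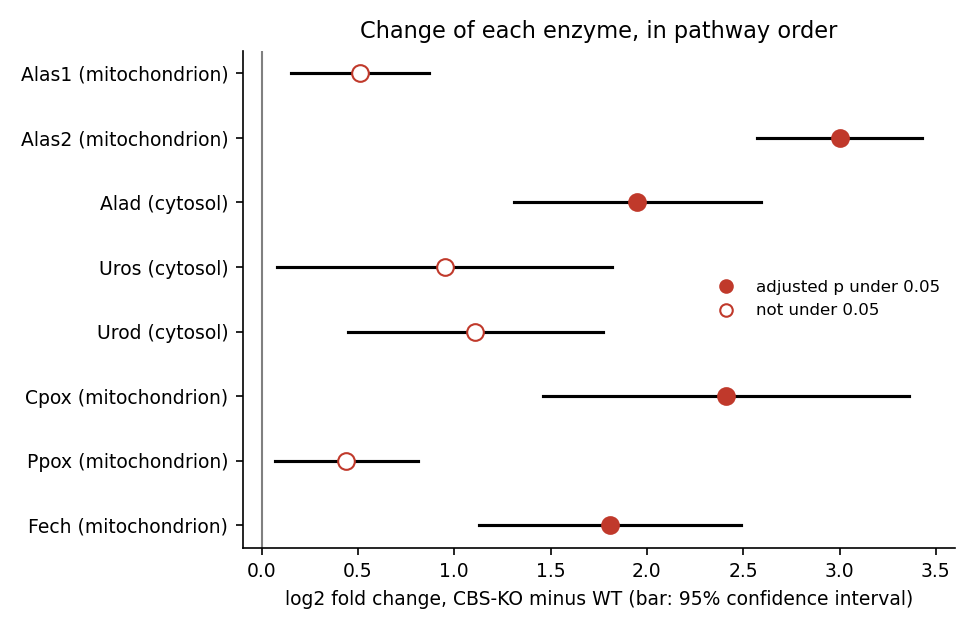
Points give the log2 fold change (CBS-KO minus WT) of the 8 enzymes in pathway order from top to bottom, bars the 95% confidence interval, and filled points an adjusted p under 0.05 in limma. Alas2 stands highest at 3.002, and Ppox (0.44) and Alas1 (0.51) lowest.

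In the order of their changes, Alas2 (3.002) was followed by Cpox (2.41), Alad (1.95), Fech (1.81), Urod (1.11), Uros (0.95), Alas1 (0.51) and Ppox (0.44), and the 95% confidence intervals of all neighbours in this order overlapped. The interval of Alas2 (2.57 to 3.43) lay wholly above those of Alas1 (0.15 to 0.87), Ppox (0.07 to 0.81), Urod (0.45 to 1.77), Uros (0.08 to 1.82) and Fech (1.13 to 2.49). These intervals come from the same arrays and were not tested against each other, apart from Alas2 against Alas1.

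The CBS-KO arrays were not alike. CBS-KO 2 was the lowest CBS-KO array for 7 of the 8 enzymes, and CBS-KO 3 the highest for 6. Set against WT, the mean of the 8 enzymes was higher by 1.65 in CBS-KO 1, by 1.01 in CBS-KO 2 and by 1.92 in CBS-KO 3. Relative to the mean of CBS-KO 1 and 3, CBS-KO 2 was lower by log2 differences from -0.43 for Alas1 to -1.39 for Cpox in these 7 enzymes, whereas Alas2 differed by -0.06. The SD among CBS-KO arrays exceeded that among WT arrays in 7 of 8 enzymes, with ratios from 1.24 for Alad to 6.04 for Fech. In WT arrays, the 8 enzymes together stood at -0.01, -0.11 and 0.12 relative to the WT mean.

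Markers of red cell precursors were higher as well, and their mean, like every enzyme but Alas2, was lowest in CBS-KO 2 among the CBS-KO arrays. Of 23 measured erythroid markers, 22 rose in CBS-KO cells and 0 fell (median log2 fold change 2.82), against 5.09% of all tested probe sets called higher. Their summed intensity was 41141 to 90833 in CBS-KO arrays and 8249.6 to 15121 in WT arrays. None was at 0, and 0 of the 23 had a CBS-KO mean and 3 a WT mean below the filter level. These 3, Cldn13, Epb42 and Trim10, passed the filter only through their CBS-KO values, so their calls as higher are not independent of the filter. By array, the erythroid mean exceeded that of WT by 3.07 in CBS-KO 1, 1.97 in CBS-KO 2 and 3.38 in CBS-KO 3, and all 23 markers were lower in CBS-KO 2 than in the mean of the other CBS-KO arrays (median -1.35). The 13 measured proliferation genes did likewise, at 1.79, 0.65 and 2.16, with 6 of 13 higher. That count was 0 without CBS-KO 1 or any 1 WT array and 2 without CBS-KO 3. It was 13 without CBS-KO 2, where 16.3% of all tested probe sets were called higher, and 1 with no filter. The part of either in the enzymes' values was not tested.

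The list means of other cell types followed another order among the CBS-KO arrays. Within the neutrophil list, 6 genes were lower in CBS-KO 2 than in the mean of the other CBS-KO arrays, and 8 were higher. Mpo and Elane were among the 6. The neutrophil list (13 of 14 higher) exceeded its WT mean by 3.56 in both CBS-KO 1 and CBS-KO 2 and by 3.14 in CBS-KO 3, with a summed intensity of 30242 to 38537 in CBS-KO and 1627 to 3369 in WT arrays. The monocyte and macrophage list (12 of 13 higher) exceeded it by 1.72, 2.42 and 1.99 in the same order, with sums of 18948 to 26561 in CBS-KO and 4103 to 6972 in WT arrays. CD4 T cell markers (4 of 10 lower) stood at -0.62, -0.33 and -1.03, with sums of 35246 to 56061 in CBS-KO and 65537 to 70635 in WT arrays. B cell markers, of which 0 of 7 passed in either direction in limma and 0 had an unadjusted p under 0.05, stood at -0.56, 0.82 and -1.04. Against these counts, 5.09% of all tested probe sets were called higher and 4.47% lower. The WT mean lay below the filter level in 5 of the 14 neutrophil genes and in 2 of the 13 monocyte and macrophage genes. Such genes passed the filter only through their CBS-KO values, so their calls as higher are not independent of the filter. Without CBS-KO 1, WT 1 and WT 2 in turn, the neutrophil list had 6, 5 and 5 members higher and the monocyte and macrophage list 7, 1 and 0. None of these genes was listed at 0, and their part in the enzymes' values was not tested.

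**Figure D3:**
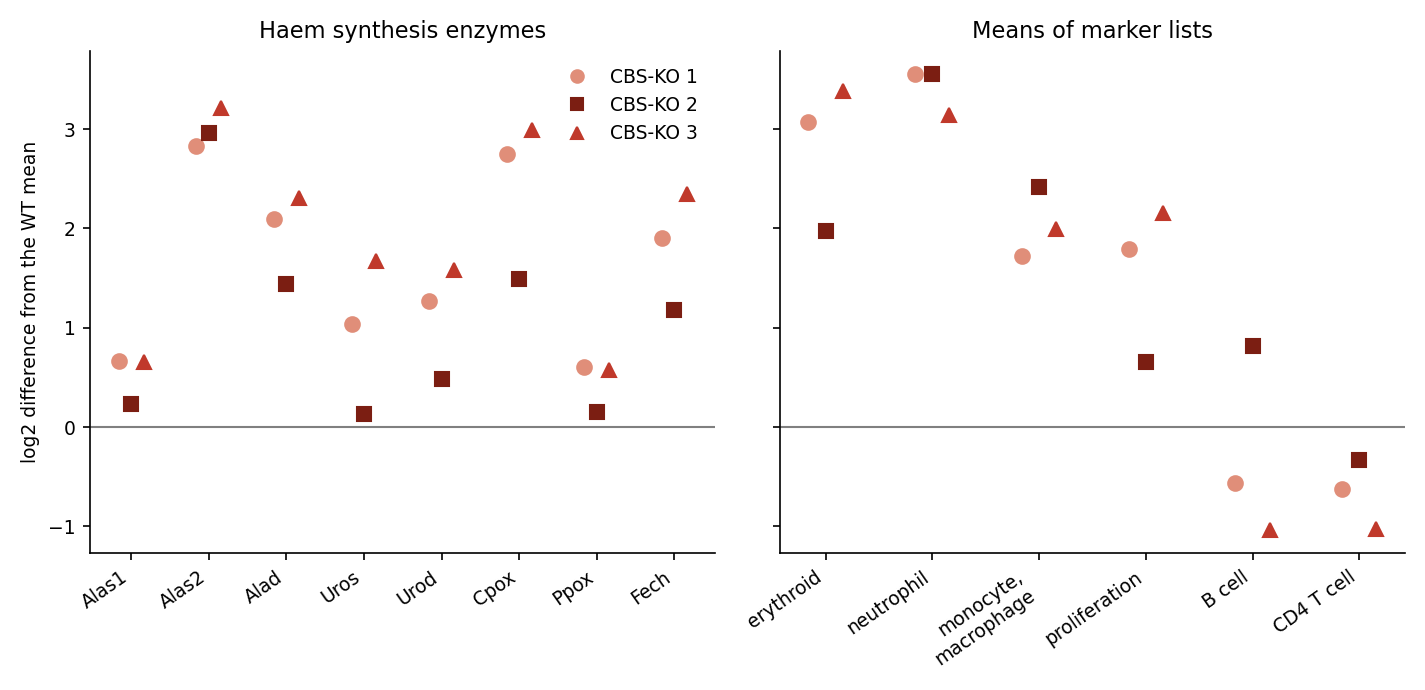
Points give the log2 difference from the WT mean in CBS-KO 1 (circle), CBS-KO 2 (square) and CBS-KO 3 (triangle), for each of the 8 enzymes on the left and for the mean of each marker list on the right. CBS-KO 2 is lowest in every enzyme but Alas2, and also lowest in the erythroid (1.97) and proliferation (0.65) lists but not in the other lists shown.

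Alas2 was compared with all other tested genes by the root mean square distance between log2 values over the 6 arrays, each taken relative to its own WT mean. The nearest of 12768 genes were Hp, the haemoglobin-binding plasma protein haptoglobin (distance 0.283, log2 fold change 2.81), the antiviral membrane protein gene Ifitm3 (0.305, 2.72), the neutrophil surface antigen gene Ly6g (0.368, 2.999), Slc40a1, the iron exporter ferroportin (0.392, 2.76), and Chil3, a chitinase-like protein gene (0.395, 3.27). Relative to its WT mean, Hp was at 2.85, 3.01 and 2.58 in CBS-KO 1 to 3, and Alas2 at 2.83, 2.96 and 3.21. The nearest erythroid marker, the membrane skeleton gene Ank1, ranked 21 at a distance of 0.455. The erythroid markers Gfi1b, Epb42, Epor and Sptb followed at ranks 27, 35, 36 and 47 of the 12768 genes. Icam4 was the farthest erythroid marker, at rank 1795, and the next farthest, Car1, ranked 533. The distance counts the size of a change as well as the order of the arrays, so its ranks do not compare that order alone. Slc4a1 and Rhag, with log2 fold changes of 4.31 and 4.28, ranked 310 and 409. The distance describes these 6 arrays, and the 3 WT and 3 CBS-KO arrays behind it are those of the comparison itself.

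Genes that serve the pathway from the mitochondrial side rose in part. Of 17 measured genes of mitochondrial transport and cofactor supply, 6 rose and 0 fell (median log2 fold change 0.72). Of all tested probe sets, 5.09% were called higher and 4.47% lower. Slc25a37, mitoferrin, which brings iron into the mitochondria of red cell precursors, read 11.37, 10.82 and 11.44 in CBS-KO 1 to 3, against 10.12, 9.79 and 10.12 in WT 1 to 3, and rose by 1.20 (SE 0.19, limma adjusted p = 0.0202). Abcb10, an inner membrane transporter needed for haem synthesis in red cell precursors, read 10.53, 9.28 and 11.15 in CBS-KO 1 to 3, against 7.82, 7.43 and 7.996 in WT 1 to 3, and rose by 2.57 (SE 0.46, limma adjusted p = 0.0251). In both genes CBS-KO 2 was the lowest CBS-KO array and the groups did not overlap. Shmt2, a mitochondrial enzyme that makes glycine, rose by 0.93 (SE 0.18) and Slc25a39, a mitochondrial glutathione carrier, by 0.77 (SE 0.16). The other members that rose, named after their values were seen, were Abcb6 (1.88, SE 0.43), a porphyrin transporter, and Tmem14c (1.20, SE 0.27), which moves protoporphyrinogen into the mitochondrial matrix. Slc25a38, the mitochondrial glycine carrier of haem synthesis, read 11.58 ± 0.37 in CBS-KO and 10.87 ± 0.19 in WT arrays (SD, n = 3 each, limma adjusted p = 0.0666). Slc25a28, the mitoferrin of other tissues, differed by -0.06 (SE 0.14).

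Of 15 genes of haem sensing and control on the array, 14 were tested, and 0 of these passed in either direction in limma (median log2 fold change 0.22). Of all tested probe sets, 5.09% passed as higher and 4.47% as lower. At an unadjusted p under 0.05 in limma, 1 of the 14 was higher and 2 were lower, where 13.6% of all tested probe sets were higher. The share of all that was lower at this threshold was not counted. Eif2ak1, the haem-regulated kinase that slows translation when haem is short, read 10.80 ± 0.25 in CBS-KO and 10.48 ± 0.04 in WT arrays (SD, n = 3 each, limma adjusted p = 0.179). Bach1, a repressor that haem inactivates, read 9.63 ± 0.07 in CBS-KO and 9.52 ± 0.02 in WT arrays (SD, n = 3 each, limma adjusted p = 0.552). Its lymphocyte relative Bach2 read 9.68, 10.51 and 9.49 in CBS-KO 1 to 3, against 10.84, 11.05 and 10.99 in WT 1 to 3, a log2 difference of -1.07 (SE 0.26, limma adjusted p = 0.0508). These 3 genes fall outside the naming rule and were chosen after their values were seen.

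Of 13 genes of haem export, import and breakdown on the array, 10 passed the filter and were tested. Of these 10, 5 rose and 0 fell (median log2 fold change 1.17). Among all tested probe sets, 5.09% were called higher and 4.47% lower. Blvrb, biliverdin reductase B, an abundant enzyme of red cells, read 12.66, 11.85 and 12.88 in CBS-KO 1 to 3, against 9.67, 9.18 and 10.30 in WT 1 to 3, and rose by 2.74 (SE 0.36, limma adjusted p = 0.0132). Hmox1, the inducible haem oxygenase that opens the haem ring, read 10.24, 11.02 and 11.04 in CBS-KO 1 to 3, against 8.50, 8.19 and 9.01 in WT 1 to 3, and rose by 2.21 (SE 0.29, limma adjusted p = 0.0138). CBS-KO 2 was the lowest CBS-KO array for Blvrb but lay within 0.02 of the highest for Hmox1. Hebp1, a haem-binding protein, rose by 2.48 (SE 0.37) and Slc48a1, which carries haem out of endosomes and phagolysosomes, by 0.90 (SE 0.13). Lrp1, the receptor of the haem-haemopexin complex, also rose (1.71, SE 0.27), and is named after its value was seen. Hmox2, the constitutive haem oxygenase, differed by 0.01 (SE 0.09).

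**Figure D4:**
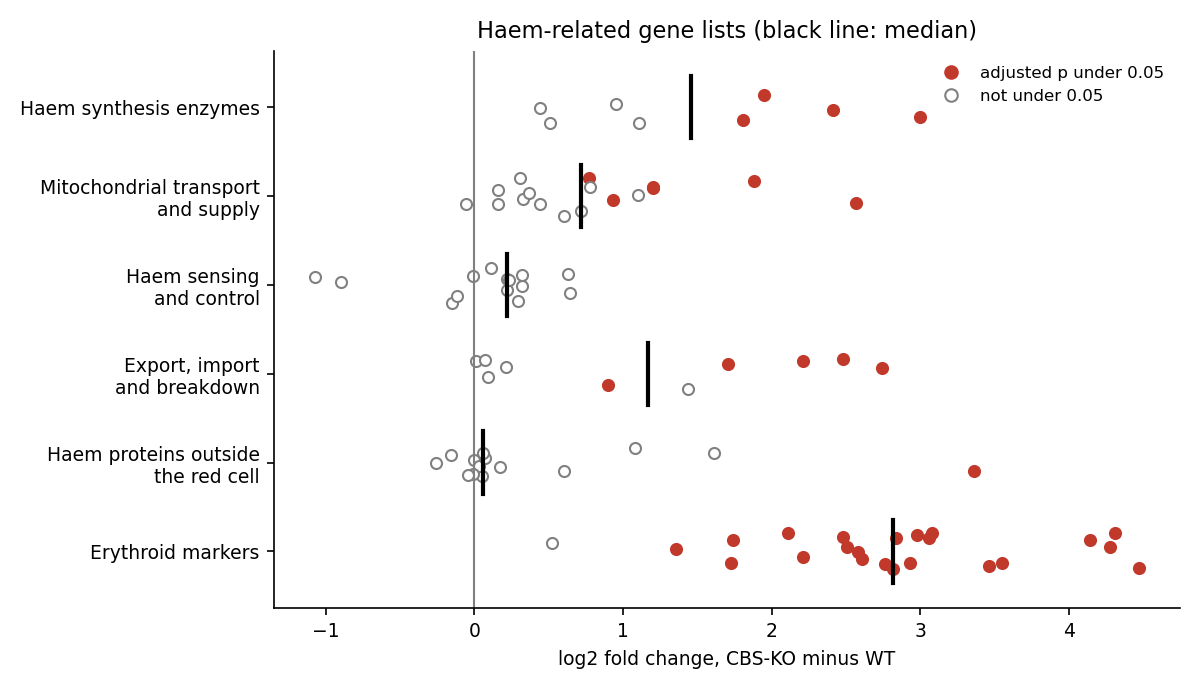
Each point is the log2 fold change (CBS-KO minus WT) of 1 gene in the haem synthesis enzymes, in 4 other haem-related lists and in the erythroid markers, filled where the adjusted p was under 0.05, and the black line is the list's median. The medians run from 0.05 for haem proteins outside the red cell to 2.82 for the erythroid markers, with 1.46 for the enzymes.

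The calls of Cpox, Alad and Fech were lost without some arrays. Leaving out each array in turn gave log2 fold changes of 2.12 to 2.87 for Cpox, 1.77 to 2.20 for Alad and 1.54 to 2.13 for Fech. Alas2 passed with each array left out in turn (limma adjusted p from 0.00181 to 0.0154). Without CBS-KO 2, all 8 enzymes passed, against 16.3% of all tested probe sets called higher. Alas2 alone passed, 1 of 8, without CBS-KO 1 (0.571% of all), without WT 1 (0.326%) and without WT 2 (0.259%). Without WT 3, Alas2 and Alad passed, 2 of 8 (2.04% of all), and without CBS-KO 3 the same 4 enzymes passed as with all arrays (3.92% of all). The log2 fold changes of all 8 enzymes stayed positive in these fits. The erythroid list was likewise reduced, to 3, 2, 1 and 14 of its 23 markers without CBS-KO 1, WT 1, WT 2 and WT 3, and all 23 passed without CBS-KO 2. The lists of mitochondrial supply and of haem breakdown had 0 and 1 members higher without CBS-KO 1, 0 and 0 without WT 1 or WT 2, 0 and 5 without WT 3, 14 and 6 without CBS-KO 2, and 3 and 5 without CBS-KO 3. With Y-linked signal as a model term, where the estimate rests on CBS-KO 3, the log2 fold changes ran from 0.57 for Ppox to 3.21 for Alas2.

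**Figure D5:**
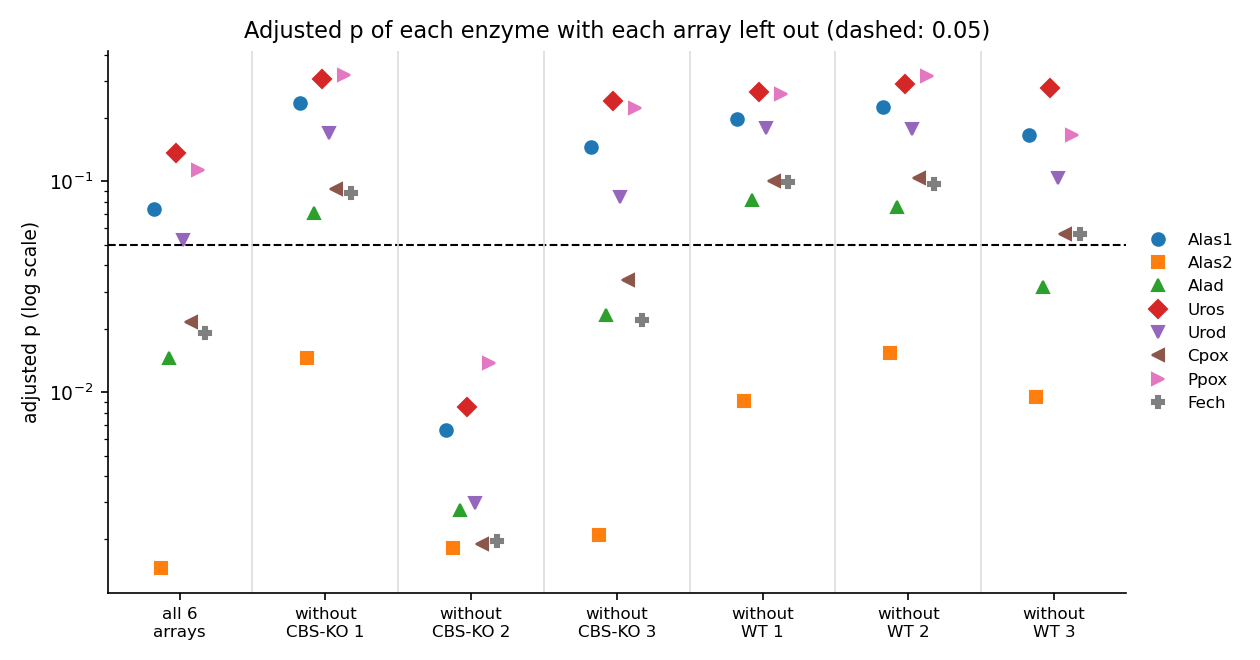
The adjusted p of each enzyme in limma (log scale) is plotted with all 6 arrays and with each array left out in turn, and the dashed line marks 0.05. Alas2 lies below the line in every column, and all 8 enzymes do without CBS-KO 2.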

How the data were processed

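The authors deposited linear-scale intensity values, 1 for each probe set on each array, made from biotinylated cRNA on Affymetrix arrays, per the labels' protocols. The sources used here do not say how background, normalization and probe set summary were handled, and the scale was read from the values. Log2(intensity + 16) was analysed without a shift, since the CBS-KO and WT array medians differed by -0.03. The filter kept the 20856 of 34760 probe sets whose mean exceeded the 40th percentile. limma 3.58.1 in R 4.3.3 (lmFit, eBayes with an intensity trend) compared CBS-KO with WT, two-sided, with Benjamini-Hochberg adjustment across the tested probe sets at 0.05. The procedure was tested on simulated data. Exact permutation tests used scipy 1.17.1, and figures matplotlib 3.10.9.

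The members and lists were chosen with earlier results of these data known. All member probe sets are named, and from each haem-related list up to 4 called genes of smallest p, each gene by its brightest tested probe set. Other genes named from these lists, Slc25a38, Slc25a28 and Hmox2 among them, fall outside this rule and were named with their values known. The 8 Entrez identifiers matched RefSeq (GRCm38.p6) with 0 symbols changed. Same-numbered CBS-KO and WT arrays correlated in their deviations from the group means by 0.06, 0.16 and 0.11. Differently numbered arrays correlated by -0.12 to 0.05, and each CBS-KO array correlated most with the WT array of its own number. These values do not settle whether the numbers pair the samples. The main fit did not pair them, and a fit with the replicate number as a block was run beside it. Alternatives were other scalings, filters, offsets and variance models, the replicate number as a block, probe sets that name 1 gene, Y-linked signal as a term, and each array left out.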

Additional observations from a re-analysis of the deposited data

How the results depend on the processing

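Over 16 alternative settings no enzyme changed direction. Alas2 passed in all 16 (log2 fold change 2.65 to 3.21), Alad in 13, Cpox and Fech in 12, Urod in 6, Uros in 2, and Alas1 and Ppox in 1. Between 4 and 6 enzymes passed when all arrays were kept. Leaving out each array in turn gave 1 to 8 enzymes, 54 to 3396 probe sets higher and 19 to 3031 lower in all, 0 to 14 genes of mitochondrial supply, 0 to 6 of haem breakdown, 0 to 4 of haem sensing, 0 to 4 haem proteins and 0 to 1 globins. With no filter, 602 probe sets were higher and 524 lower, and mitochondrial supply had 2 and globins 0 higher. With Y-linked signal as a term these counts were 2309, 2667, 12 and 1, with 3 of haem sensing and 3 haem proteins higher. At a common array median, mitochondrial supply had 3 and globins 0. Globins also had 0 at the 60th percentile and after quantile normalization, and haem proteins had 3 over probe sets that name 1 gene. The cause of these changes was not tested. With the replicate number as a block, 5 enzymes passed, adding Urod (adjusted p = 0.0355), 1169 probe sets were higher and 924 lower, haem proteins had 3 and globins 0, and 12 of 13 proliferation genes were higher. The change of Alas2 exceeded that of Alas1 by 2.16 to 2.65 in all settings run. With 3 arrays a group, the number of arrays limits precision, and values near the filter level of 6.99, such as Alas2 in WT, depend on an unknown background.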

Other observations

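Of 17 genes on the array for proteins that carry haem outside the red cell, 14 were tested. Of these 14, 1 rose in CBS-KO cells and 0 fell (median log2 fold change 0.05), a share near the 5.09% of all tested probe sets called higher. The gene that rose was Mpo, the myeloperoxidase of neutrophil granules. It read 12.93, 11.65 and 12.57 in CBS-KO 1 to 3, against 8.85, 8.20 and 10.01 in WT 1 to 3, a rise of 3.36 (SE 0.51, limma adjusted p = 0.0179). Mpo is also in the neutrophil list, of which 13 of 14 genes were higher. Cycs, cytochrome c, read 12.53 ± 0.34 in CBS-KO and 12.37 ± 0.08 in WT arrays (SD, n = 3 each, limma adjusted p = 0.546). Cat, catalase, differed by 0.05 (SE 0.07), and Cox10 and Cox15, which convert haem to the haem A of cytochrome oxidase, by 0.03 (SE 0.11) and 0.07 (SE 0.15). Apart from Mpo, these genes were chosen after their values were seen.

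Of 12 listed globin and globin chaperone genes, 5 were on the array by a probe set that names 1 gene, and 2 were tested. Of the 5, 3 had a mean below the filter level in both CBS-KO and WT arrays. Hbq1b, a theta globin gene, read 7.91, 7.87 and 8.05 in CBS-KO 1 to 3, against 7.42, 7.53 and 7.53 in WT 1 to 3, and rose by 0.45 (SE 0.11, limma adjusted p = 0.0478), a call that held in 6 of the 15 alternative settings that tested it. The adult globin genes are not analysed here, because no probe set names 1 of them alone.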
